A study of Homo sapiens with 9 samples.

Results

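The genes described here are 33 genes of glycolysis and of the cellular response to low oxygen, taken as a fixed list and followed across 3 groups of U2OS cells. A total of 31 of the 33 had a probe set assigned to that gene alone and were measured, among 19775 genes in all. Each gene was read from its brightest such probe set (mean over all 9 arrays), a choice that does not depend on the groups. SLC16A3 and CA9 were not analysed here. The 31 genes comprised 15 glycolytic enzymes, 2 glucose transporters, 3 regulators of glycolytic and pyruvate flux, 9 other hypoxia targets and 2 alpha subunits of the hypoxia-inducible factor (HIF).

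U2OS is a human osteosarcoma line. One group carried the BAP1 shRNA labelled shBAP1 #1, a second the BAP1 shRNA labelled shBAP1 #2, and the third a non-targeting shRNA labelled shControl, with 3 arrays per group. BAP1 encodes a deubiquitinase of the nucleus that acts as a tumour suppressor. In all 3 groups the shRNA came from a plasmid introduced by lipid transfection, cells were enriched with puromycin, and a double thymidine block held them at the entry to S phase, so each culture is a puromycin-selected population of 1 line. The labels do not say whether the arrays of a group came from separate cultures, so p-values reflect only how these samples vary, and that variation may be technical. The comparisons ask how each shRNA differed from shControl and how the shRNAs differed from each other.

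Glycolysis splits glucose into pyruvate, which lactate dehydrogenase can turn into lactate, and most of its steps can be carried out by more than 1 isoenzyme. Many of the genes concerned are also transcribed by HIF, a dimer whose alpha subunit is marked for destruction by oxygen-dependent prolyl hydroxylases and accumulates when oxygen is short. HIF additionally drives genes outside glycolysis, among them regulators of mitophagy, secreted vasoactive peptides and the prolyl hydroxylases themselves. The labels record no hypoxic treatment.

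Values are log2 levels after robust multi-array averaging, and a change is a difference of group means on that scale with its standard error (SE). A gene was called when its Benjamini-Hochberg adjusted p from limma, fitted over all 19775 genes, was below 0.05. Array medians lay between 5.40 and 5.45, no array duplicated another, and arrays of 1 group correlated at 0.995 to 0.997. The first shBAP1 #2 array resembled shControl more than its fellows did, its mean correlation with the shControl arrays being 0.989, against 0.981 for replicates 2 and 3. In shBAP1 #1 the third array was the nearest to shControl, at 0.99, against 0.986 and 0.987 for replicates 1 and 2. Without the first shBAP1 #2 array, 9 members were higher and 6 lower with shBAP1 #2 against shControl. The share of all genes called in that fit was not computed, so these counts say little about the members. No probe set was assigned to BAP1, so the labels were not checked by the level of the targeted transcript. Of 6 mesenchymal markers, 4 were above the median probe set level of 5.44, and COL1A2 and ALPL were below it. The mean level of that list was 9.34 to 9.50 in shBAP1 #1, 9.06 to 9.18 in shBAP1 #2 and 8.90 to 8.97 in shControl. Of 6 epithelial markers, 4 were likewise above 5.44, and CDH1 and KRT19 were below it. The 6 epithelial markers averaged 7.01 to 7.05 in shBAP1 #1, 6.95 to 7.02 in shBAP1 #2 and 7.39 to 7.50 in shControl. Against shControl, 3 of the 6 mesenchymal markers were called higher with shBAP1 #1 and 1 of 6 with shBAP1 #2. Of the 6 epithelial markers, 4 were called lower with shBAP1 #1 and 3 with shBAP1 #2. Over all genes, 13.0% were higher and 12.6% lower with shBAP1 #1, and 16.9% higher and 16.5% lower with shBAP1 #2. All 4 measured leukocyte markers and 4 of 5 endothelial markers lay below 5.44. The difference between the 3' and 5' actin control probe sets was 0.39 to 0.41 in shBAP1 #1, 0.39 to 0.46 in shBAP1 #2 and 0.47 to 0.51 in shControl. The part of these shifts in the results below was not tested.

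With shBAP1 #1 against shControl, 14 of the 31 members were called, 5 higher and 9 lower. The hypoxia targets BNIP3, ADM and ANKRD37, the glucose transporter SLC2A1 and the enzymes ENO1 and LDHA were among the lower genes, whereas EPAS1, ALDOC, PFKFB4, EGLN1 and PFKM were higher. Over all genes tested, percent called in this comparison was 25.6%, with 13.0% higher and 12.6% lower. With shBAP1 #2 against shControl, 13 of 31 were called, 7 higher and 6 lower, where 33.4% of all genes were called (16.9% higher and 16.5% lower). HK1, NDRG1, PKM and BNIP3 were among the higher genes, and ALDOC, PFKFB3, PGAM1 and PFKM among the lower ones. Most members are bright, and among the 12748 genes at or above the median probe set level the called share was 36.9% for shBAP1 #1 and 47.8% for shBAP1 #2. The members' shares were 45.2% with shBAP1 #1 and 41.9% with shBAP1 #2, one above and the other below those of bright genes, so the number of calls says little about the members. The 3 shBAP1 #1 arrays did not overlap the shControl arrays at 20 of the 31 members, against 38.8% of all genes, and the shBAP1 #2 arrays did not overlap them at 21 members, against 42.9%. The share of bright genes without overlap was not computed, so these counts also say little about the members. In these bulk samples, fewer cells with a transcript and less of it per cell cannot be told apart.

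The shRNAs differed from each other at 20 of 31 members, 12 higher and 8 lower in shBAP1 #2 than in shBAP1 #1. Across all genes that comparison called 34.7% (17.1% higher and 17.6% lower), and 49.3% of the genes at or above the median level, against 64.5% of the members. The arrays of the shRNAs did not overlap at 23 members, against 43.9% of all genes. At least 1 comparison called 21 of the 31 members, against 48.3% of all genes. Both shRNAs were tested against the same shControl arrays. EGLN1 was called higher and PFKFB3 lower with each shRNA, where 6.22% of all genes were called higher and 5.49% lower with each. PFKM, ALDOC, BNIP3 and NDRG1 were called in opposite directions against shControl, as were 3.44% of all genes. Shares of bright genes were not computed for non-overlap, for calls in at least 1 comparison or for calls with both shRNAs. Those counts therefore say little about the members. The map of the members by array shows the changes gene by gene.

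**Figure D1:**
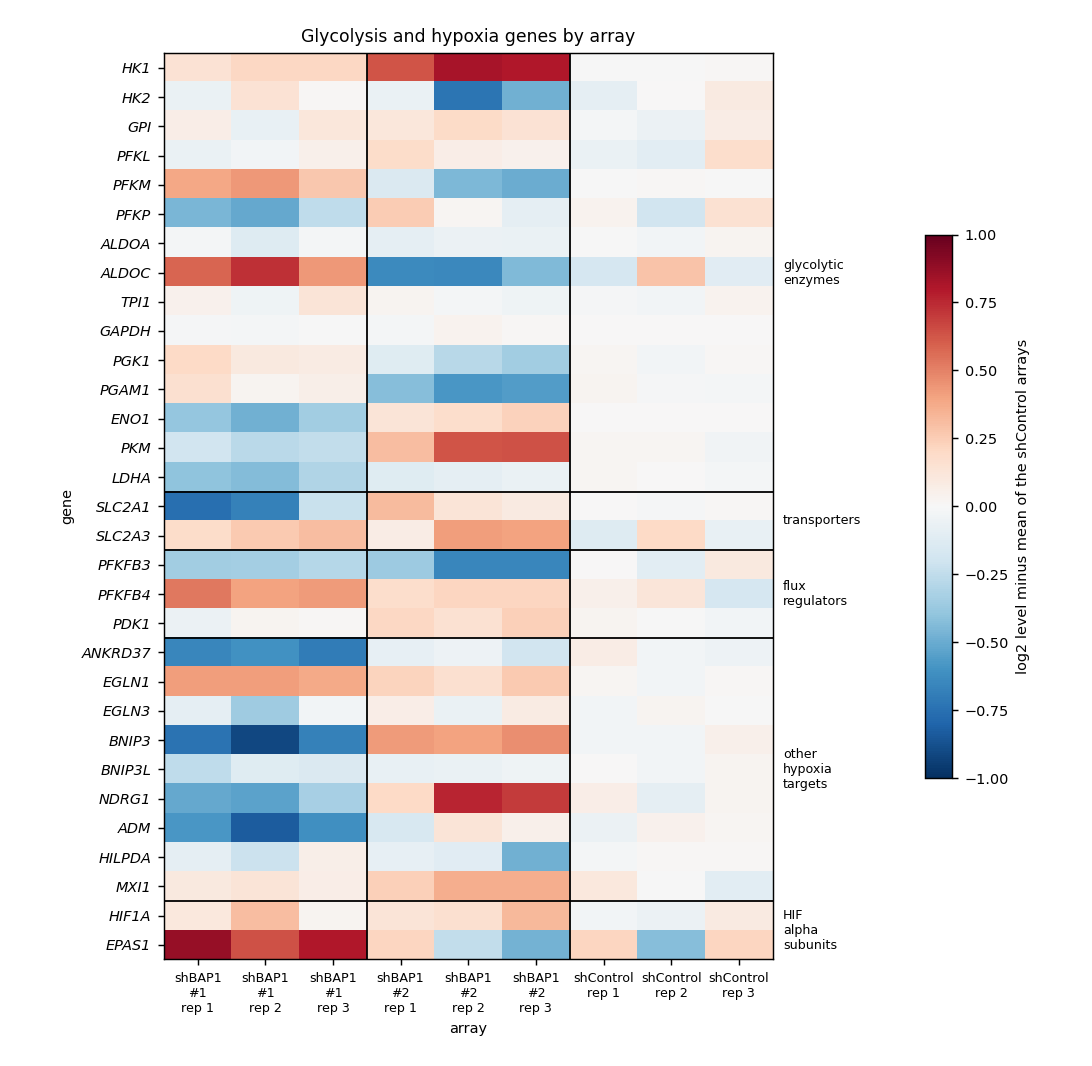
Each cell is the log2 level of 1 gene on 1 array minus the mean of the shControl arrays for that gene (colour scale from -1 to 1), with arrays in columns (shBAP1 #1, shBAP1 #2, shControl) and genes in rows grouped by role. BNIP3, ADM and ANKRD37 are low on all 3 shBAP1 #1 arrays, and ALDOC and PFKM are high in shBAP1 #1 and low in shBAP1 #2.

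Among the 15 glycolytic enzymes, genes went both ways with each shRNA. With shBAP1 #1 against shControl, 2 were higher, 3 lower and 10 not called, with a median log2 change of 0.03. With shBAP1 #2 against shControl, 2 were higher, 5 lower and 8 not called, with a median of -0.01. Between the shRNAs, 5 were higher and 5 lower in shBAP1 #2, and the median was 0.02. The medians over all genes in these comparisons were 0.007, 0.016 and 0.006. The called shares of the enzymes were 33.3%, 46.7% and 66.7%, against 25.6%, 33.4% and 34.7% of all genes. Of genes at or above the median level, 36.9%, 47.8% and 49.3% were called.

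Hexokinases trap glucose in the cell by phosphorylating it. HK1, the widely expressed form, had log2 levels of 11.31, 11.37 and 11.37 in shBAP1 #1, 11.79, 11.99 and 11.96 in shBAP1 #2, and 11.16, 11.16 and 11.17 in shControl. The groups did not overlap, and the shBAP1 #2 arrays were the highest. The change was 0.75 ± 0.07 (SE) with shBAP1 #2 against shControl, a 1.68-fold difference (limma adjusted p = 2.54e-05), and 0.19 ± 0.07 with shBAP1 #1 (adjusted p = 0.0733). HK2, the hypoxia-inducible form, had 8.68, 8.89 and 8.76 in shBAP1 #1, 8.67, 8.02 and 8.26 in shBAP1 #2, and 8.65, 8.75 and 8.83 in shControl. One shBAP1 #2 array lay within the shControl range, and the other two lay below it. HK2 was called lower with shBAP1 #2 by 0.43 ± 0.14 on the log2 scale (limma adjusted p = 0.038). That call was lost on leaving out any of 7 of the 9 arrays, with a highest adjusted p of 0.14 without replicate 2 of shBAP1 #2, where the change was -0.28. Moreover, 2 other HK2 probe sets, 222305_at and 239410_at, were called higher with shBAP1 #2, by 0.86 and 1.08, so the direction for HK2 rests on which probe set is read.

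Phosphofructokinase, which catalyses the committed step, has a muscle (PFKM), a liver (PFKL) and a platelet (PFKP) form. PFKM levels were 10.82, 10.87 and 10.70 in shBAP1 #1, 10.29, 9.99 and 9.94 in shBAP1 #2, and 10.43, 10.45 and 10.43 in shControl. Every shBAP1 #1 array was above, and every shBAP1 #2 array below, all shControl arrays. PFKM was higher by 0.36 ± 0.09 with shBAP1 #1 (adjusted p = 0.0152) and lower with shBAP1 #2 at -0.37 ± 0.09 (adjusted p = 0.0107), and shBAP1 #2 differed from shBAP1 #1 by -0.73 ± 0.09 (limma adjusted p = 0.000148). The call for shBAP1 #1 was lost without its replicate 1 or 2 or without shControl replicate 1, with a highest adjusted p of 0.0588. PFKP levels were 9.17, 9.12 and 9.38 in shBAP1 #1, 9.88, 9.65 and 9.54 in shBAP1 #2, and 9.67, 9.44 and 9.78 in shControl. The shBAP1 #1 arrays lay below both other groups, whose ranges overlapped. PFKP changed by -0.41 ± 0.12 with shBAP1 #1 (limma adjusted p = 0.0244), a call lost without replicate 1 or 2 of shBAP1 #1 or replicate 1 or 3 of shControl (highest adjusted p = 0.0967). Another PFKP probe set, 240202_x_at, averaged 5.88 and gave -0.04 with shBAP1 #1, which was not called. PFKL was not called in any comparison, with changes of -0.01 and 0.10 against shControl.

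Aldolase cleaves the resulting fructose bisphosphate. ALDOC, the form best known from brain, had 7.87, 8.03 and 7.73 in shBAP1 #1, 6.66, 6.65 and 6.85 in shBAP1 #2, and 7.12, 7.58 and 7.18 in shControl. The shBAP1 #1 arrays were all above and the shBAP1 #2 arrays all below the shControl arrays. The change was 0.58 ± 0.12 with shBAP1 #1 (1.5-fold, limma adjusted p = 0.00538) and -0.58 ± 0.12 with shBAP1 #2 (0.671-fold, adjusted p = 0.00426). Its difference of -1.16 ± 0.12 between shBAP1 #2 and shBAP1 #1 (adjusted p = 4.82e-05) was the largest drop among the members in that comparison. ALDOA, the main aldolase of most tissues, was not called, at -0.06 with shBAP1 #1 and -0.07 with shBAP1 #2.

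GAPDH, the enzyme of the first oxidation, had 14.86, 14.85 and 14.87 in shBAP1 #1, 14.85, 14.90 and 14.88 in shBAP1 #2, and 14.87 on each shControl array. The shBAP1 #1 arrays lay below the shControl arrays by 0.02 or less, and the shBAP1 #2 arrays overlapped them. GAPDH and the isomerases GPI and TPI1 were not called in any comparison, with changes between -0.01 and 0.15 against shControl. GAPDH lay close to the brightest value of any probe set on an array, which was 14.92 to 15.07 in shBAP1 #1, 14.87 to 14.90 in shBAP1 #2 and 15.01 to 15.04 in shControl.

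Of the next 2 enzymes, PGK1, which makes the first ATP of the pathway, had 13.38, 13.28 and 13.26 in shBAP1 #1, 13.05, 12.90 and 12.82 in shBAP1 #2, and 13.19, 13.15 and 13.18 in shControl. PGAM1, the following mutase, had 13.31, 13.18 and 13.21 in shBAP1 #1, 12.72, 12.57 and 12.59 in shBAP1 #2, and 13.18, 13.14 and 13.13 in shControl. For both genes, the shBAP1 #2 arrays lay below all the others. With shBAP1 #2 against shControl, PGAM1 changed by -0.52 ± 0.07 (limma adjusted p = 0.000192) and PGK1 by -0.25 ± 0.07 (adjusted p = 0.0227). The PGK1 call was lost without replicate 2 or 3 of shBAP1 #2 or replicate 1 or 3 of shControl (highest adjusted p = 0.0902, change -0.20). With shBAP1 #1 neither was called, at 0.13 for PGK1 and 0.08 for PGAM1.

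The last 3 enzymes were higher in shBAP1 #2 than in shBAP1 #1. ENO1, the main enolase, had 13.38, 13.29 and 13.42 in shBAP1 #1, 13.89, 13.94 and 14.00 in shBAP1 #2, and 13.76 on each shControl array. PKM, which encodes the pyruvate kinase of muscle and tumour cells, had 12.43, 12.35 and 12.38 in shBAP1 #1, 12.93, 13.25 and 13.26 in shBAP1 #2, and 12.64, 12.64 and 12.59 in shControl. In both genes the 3 groups were separate, with shBAP1 #1 lowest and shBAP1 #2 highest. ENO1 changed by -0.40 ± 0.06 with shBAP1 #1 (limma adjusted p = 0.000842) and by 0.18 ± 0.06 with shBAP1 #2, which was not called (adjusted p = 0.0517). Another ENO1 probe set, 217294_s_at, gave -0.34 and 0.18, while 240258_at gave 0.15 with shBAP1 #1, which was not called. PKM changed by 0.53 ± 0.09 with shBAP1 #2 (adjusted p = 0.000963) and by -0.23 ± 0.09 with shBAP1 #1 (adjusted p = 0.0829). A fit chosen after seeing the data paired shBAP1 #1 and shControl arrays by replicate number as a replicate block. In it the same PKM change of -0.23 was called (limma adjusted p = 0.0324). Another PKM probe set, 213700_s_at, gave 0.06 with shBAP1 #1, which was not called, and 0.87 with shBAP1 #2, which was called. LDHA, which reduces pyruvate to lactate, had 13.51, 13.48 and 13.61 in shBAP1 #1, 13.79, 13.82 and 13.85 in shBAP1 #2, and 13.93, 13.91 and 13.89 in shControl. Here shControl was the highest group and shBAP1 #1 the lowest, without overlap. LDHA changed by -0.38 ± 0.06 with shBAP1 #1 (limma adjusted p = 0.00104) and by -0.09 with shBAP1 #2 (adjusted p = 0.305).

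**Figure D2:**
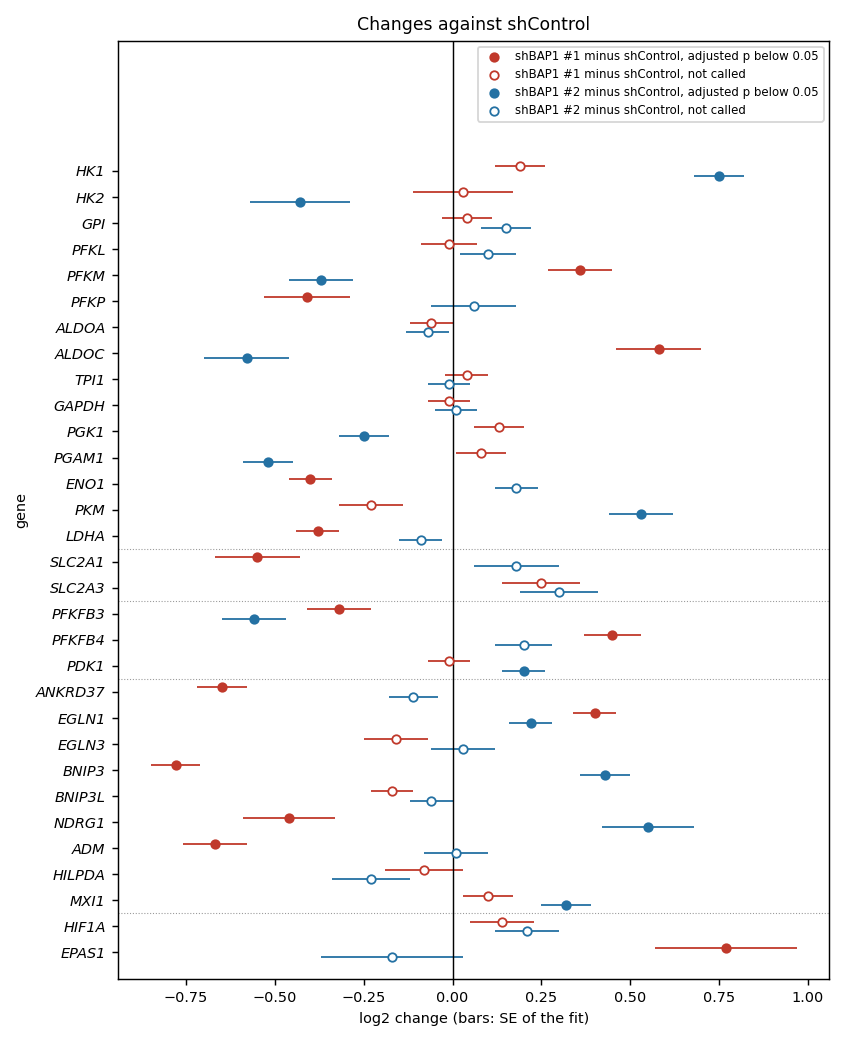
Points are the log2 change against shControl for shBAP1 #1 (red) and shBAP1 #2 (blue), with bars for the SE of the fit, and filled points are called at an adjusted p below 0.05. Genes run down the page by role; the points for ALDOC, PFKM, BNIP3 and NDRG1 are filled on opposite sides of 0.

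Glucose enters through facilitative transporters. SLC2A1 (GLUT1), a textbook HIF target, had 7.47, 7.55 and 8.0 in shBAP1 #1, 8.54, 8.35 and 8.32 in shBAP1 #2, and 8.23, 8.22 and 8.24 in shControl. The shBAP1 #1 arrays were below and the shBAP1 #2 arrays above shControl. Its change was -0.55 ± 0.12 with shBAP1 #1 (limma adjusted p = 0.00742), 0.18 ± 0.12 with shBAP1 #2 (adjusted p = 0.334) and 0.73 ± 0.12 between shBAP1 #2 and shBAP1 #1 (adjusted p = 0.000947). The other SLC2A1 probe set, 201249_at, averaged 3.65, below the median level, and gave 0.11 with shBAP1 #1, which was not called. SLC2A3 (GLUT3) was at 0.25 with shBAP1 #1 (adjusted p = 0.133) and 0.30 with shBAP1 #2 (adjusted p = 0.0612), not called in either. With shBAP1 #2 it was called when dim genes were left out (adjusted p = 0.0474), and 2 other SLC2A3 probe sets, 202499_s_at and 202498_s_at, were called higher, at 1.11 and 0.75 (adjusted p = 0.00142 and 0.0102 over all probe sets).

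PFKFB3 and PFKFB4 make and remove the sugar phosphate that activates phosphofructokinase, PFKFB3 mainly making it. PFKFB3 had 7.39, 7.40 and 7.45 in shBAP1 #1, 7.38, 7.08 and 7.09 in shBAP1 #2, and 7.74, 7.63 and 7.84 in shControl. PFKFB4 had 7.50, 7.37 and 7.40 in shBAP1 #1, 7.15, 7.19 and 7.19 in shBAP1 #2, and 7.02, 7.09 and 6.80 in shControl. Both shBAP1 groups were therefore below shControl for PFKFB3 and above it for PFKFB4. PFKFB3 changed by -0.32 ± 0.09 with shBAP1 #1 (limma adjusted p = 0.0222) and by -0.56 ± 0.09 with shBAP1 #2 (adjusted p = 0.000788). Its call for shBAP1 #1 was lost without replicate 1 or 2 of shBAP1 #1 or replicate 1 or 3 of shControl (highest adjusted p = 0.0848). PFKFB4 changed by 0.45 ± 0.08 with shBAP1 #1 (adjusted p = 0.00201) and by 0.20 with shBAP1 #2, which was not called (adjusted p = 0.0873). Another PFKFB4 probe set, 206246_at, averaged 5.71 and gave 0.18 with shBAP1 #1, which was not called. PDK1, a kinase that switches off pyruvate dehydrogenase, had 7.04, 7.12 and 7.11 in shBAP1 #1, 7.31, 7.25 and 7.33 in shBAP1 #2, and 7.13, 7.10 and 7.08 in shControl. Its shBAP1 #2 arrays lay above all others. PDK1 changed by 0.20 ± 0.06 with shBAP1 #2 (limma adjusted p = 0.0249), a call lost without replicate 3 of shBAP1 #2 or any 1 shControl array (highest adjusted p = 0.0808), and by -0.01 with shBAP1 #1. With all PDK1 probe sets averaged, the value for shBAP1 #2 was -0.07 and not called (adjusted p = 0.571).

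The 9 other hypoxia targets showed a different balance of directions between the shRNAs. With shBAP1 #1 against shControl, 1 was higher (EGLN1), 4 were lower (BNIP3, ADM, ANKRD37 and NDRG1) and 4 were not called, with a median log2 change of -0.17. Over all genes, 13.0% were higher and 12.6% lower in that comparison. The median was -0.35 with each gene's probe sets averaged and -0.32 without dim genes. It was -0.46 with probe sets of suffix _x_at or _s_at (probes shared between transcripts or genes) left out where a gene had another kind. NDRG1 and EGLN3 had no other kind and kept theirs, and BNIP3L was then read from 221478_at (-0.53). With shBAP1 #2 against shControl, 4 were higher (NDRG1, BNIP3, MXI1 and EGLN1), 0 were lower and 5 were not called, with a median of 0.03, where 16.9% of all genes were higher and 16.5% lower. That median was 0.08 with probe sets averaged and 0.11 without dim genes. Between shBAP1 #2 and shBAP1 #1, 5 were higher, 1 was lower and the median was 0.23, or 0.39 without dim genes, where 17.1% of all genes were higher and 17.6% lower. The called shares of the 9 genes in these comparisons were 55.6%, 44.4% and 66.7%, against 25.6%, 33.4% and 34.7% of all genes. Of genes at or above the median level, 36.9%, 47.8% and 49.3% were called. Per array, the median deviation of the 9 hypoxia targets from the shControl mean was -0.25, -0.35 and -0.14 in shBAP1 #1. It was 0.07, 0.13 and 0.08 in shBAP1 #2, and 0, -0.02 and 0.01 in shControl. For the glycolytic enzymes it was -0.01, -0.03 and 0.05 in shBAP1 #1, -0.02, -0.02 and -0.06 in shBAP1 #2, and 0, 0 and 0.01 in shControl. The medians of these 9 hypoxia targets were thus lowest on the shBAP1 #1 arrays. The enzymes' medians stayed within 0.06 of 0 on every array. In a further list of 28 measured hypoxia targets, described below, 11 were higher and 8 lower with shBAP1 #1, with a median of 0.07. The members were chosen with earlier results of these data known, so no test of the difference between the gene classes is given.

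**Figure D3:**
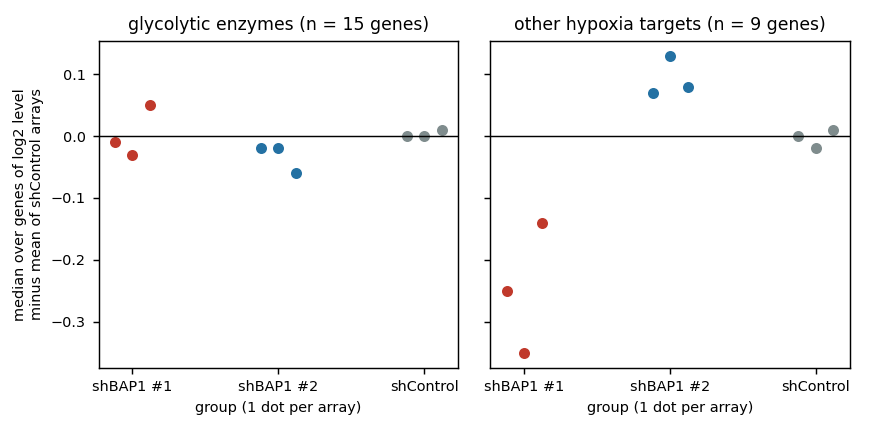
Points give, for each array, the median over the glycolytic enzymes (15 genes) and over the other hypoxia targets (9 genes) of the log2 level minus the shControl mean, for shBAP1 #1, shBAP1 #2 and shControl. The hypoxia targets lie between -0.35 and -0.14 in shBAP1 #1, and the enzymes near 0 in every group.

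BNIP3, a mitochondrial outer membrane receptor for mitophagy, had 9.86, 9.69 and 9.92 in shBAP1 #1, 11.03, 11.00 and 11.06 in shBAP1 #2, and 10.58, 10.57 and 10.65 in shControl. The 3 groups were widely separate, with shControl between the shRNAs. BNIP3 changed by -0.78 ± 0.07 with shBAP1 #1 (0.584-fold, limma adjusted p = 4.06e-05) and by 0.43 ± 0.07 with shBAP1 #2 (1.35-fold, adjusted p = 0.00101). Between shBAP1 #2 and shBAP1 #1 it differed by 1.21 ± 0.07, or 2.31-fold (adjusted p = 2.31e-06), the largest difference among the members. A second BNIP3 probe set, 201848_s_at, gave -0.55 with shBAP1 #1, 0.60 between the shRNAs and 0.05 with shBAP1 #2, the last not called. So the fall with shBAP1 #1 was seen on both probe sets, and the rise with shBAP1 #2 on 1 of them. BNIP3L, its paralogue, was not called, at -0.17 with shBAP1 #1 (adjusted p = 0.0633) and -0.06 with shBAP1 #2, but another BNIP3L probe set, 221478_at, was called lower with both, at -0.53 with shBAP1 #1 and -0.82 with shBAP1 #2.

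NDRG1, a cytoplasmic protein induced by hypoxia and other stresses, had 8.51, 8.49 and 8.69 in shBAP1 #1, 9.23, 9.78 and 9.72 in shBAP1 #2, and 9.09, 8.93 and 9.05 in shControl. As for BNIP3, shBAP1 #1 was lowest and shBAP1 #2 highest without overlap. NDRG1 changed by -0.46 ± 0.13 with shBAP1 #1 (limma adjusted p = 0.0256) and by 0.55 ± 0.13 with shBAP1 #2 (adjusted p = 0.00761), and differed by 1.01 ± 0.13 between shBAP1 #2 and shBAP1 #1 (adjusted p = 0.000166). Its call for shBAP1 #1 was lost without replicate 1 or 2 of shBAP1 #1 or replicate 1 or 3 of shControl (highest adjusted p = 0.0903, change -0.43).

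ADM, the precursor of the vasodilator adrenomedullin, had 6.03, 5.78 and 6.0 in shBAP1 #1, 6.45, 6.73 and 6.66 in shBAP1 #2, and 6.55, 6.65 and 6.62 in shControl. ANKRD37, an ankyrin repeat protein known as a HIF target, had 6.06, 6.11 and 6.01 in shBAP1 #1, 6.63, 6.67 and 6.53 in shBAP1 #2, and 6.79, 6.69 and 6.67 in shControl. For both, the shBAP1 #1 arrays stood below all others. With shBAP1 #1 against shControl, ADM changed by -0.67 ± 0.09 (limma adjusted p = 0.000379) and ANKRD37 by -0.65 ± 0.07 (adjusted p = 6.79e-05). With shBAP1 #2 against shControl neither was called, at 0.01 for ADM (adjusted p = 0.966) and -0.11 for ANKRD37 (adjusted p = 0.281). The shRNAs themselves differed, by 0.68 ± 0.09 for ADM (adjusted p = 0.000216) and 0.55 ± 0.07 for ANKRD37 (adjusted p = 0.000118), shBAP1 #2 minus shBAP1 #1. The other ANKRD37 probe set, 242548_x_at, averaged 4.03, below the median level. It gave -0.06 with shBAP1 #1 and 0.20 between the shRNAs, neither called.

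EGLN1, the principal HIF prolyl hydroxylase, had 9.43, 9.43 and 9.39 in shBAP1 #1, 9.23, 9.17 and 9.28 in shBAP1 #2, and 9.03, 8.99 and 9.02 in shControl. Both shBAP1 groups lay above shControl and did not overlap each other. EGLN1 changed by 0.40 ± 0.06 with shBAP1 #1 (limma adjusted p = 0.000568) and by 0.22 ± 0.06 with shBAP1 #2 (adjusted p = 0.0162). The call for shBAP1 #2 was lost without its replicate 3 (0.19, adjusted p = 0.0613) or without shControl replicate 2 (0.20, adjusted p = 0.0504), and also with all EGLN1 probe sets averaged (0.08, adjusted p = 0.343). EGLN3, a strongly hypoxia-inducible relative, averaged 5.41, below the median level of all probe sets, and was not called. Its other probe set, 219232_s_at, averaged 3.77 and was called higher with shBAP1 #2, at 0.40 (adjusted p = 0.0385 over all probe sets). MXI1, an antagonist of MYC, had 10.69, 10.73 and 10.66 in shBAP1 #1, 10.84, 10.96 and 10.96 in shBAP1 #2, and 10.71, 10.60 and 10.49 in shControl. Its shBAP1 #2 arrays were above both other groups. MXI1 changed by 0.32 ± 0.07 with shBAP1 #2 (limma adjusted p = 0.00558) and by 0.10 with shBAP1 #1 (adjusted p = 0.418). HILPDA, a lipid droplet protein, was not called, at -0.08 with shBAP1 #1 and -0.23 with shBAP1 #2 (adjusted p = 0.148).

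Of the HIF alpha subunits, HIF1A had 12.15, 12.35 and 12.07 in shBAP1 #1, 12.18, 12.21 and 12.37 in shBAP1 #2, and 12.02, 11.99 and 12.13 in shControl. The shBAP1 #2 arrays lay above all shControl arrays, and the shBAP1 #1 arrays overlapped both groups. HIF1A was not called, at 0.14 with shBAP1 #1 (adjusted p = 0.301) and 0.21 with shBAP1 #2 (adjusted p = 0.105). EPAS1, which encodes the other main alpha subunit, had 7.30, 7.06 and 7.23 in shBAP1 #1, 6.64, 6.18 and 5.96 in shBAP1 #2, and 6.64, 6.0 and 6.64 in shControl. The shBAP1 #1 arrays lay above all the rest, and the other two groups overlapped and were widely spread. EPAS1 changed by 0.77 ± 0.20 with shBAP1 #1 (limma adjusted p = 0.0146), the largest rise among the members in that comparison, and by -0.17 with shBAP1 #2 (adjusted p = 0.582). Its call for shBAP1 #1 was lost without replicate 1 of that group (0.72, adjusted p = 0.0583) and with all EPAS1 probe sets averaged (0.27, adjusted p = 0.0952). HIF alpha subunits are controlled mainly at the level of the protein, which arrays do not measure.

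**Figure D4:**
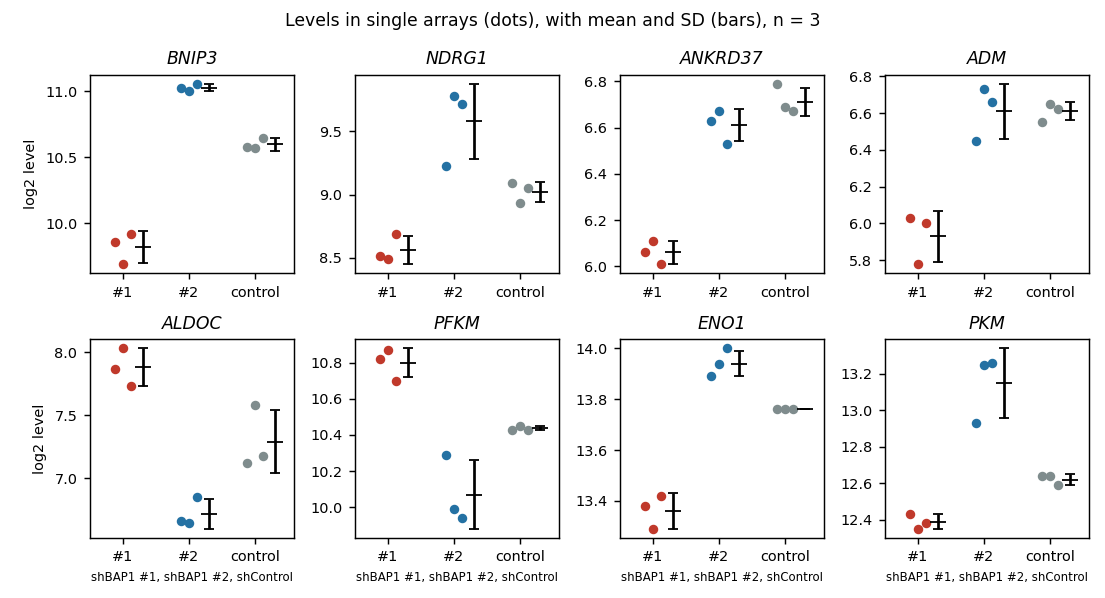
Points are the log2 levels of BNIP3, NDRG1, ANKRD37, ADM, ALDOC, PFKM, ENO1 and PKM on each array of shBAP1 #1, shBAP1 #2 and shControl, and lines mark group means with bars for the SD (n = 3). The shBAP1 #1 arrays are the lowest for BNIP3, NDRG1, ANKRD37, ADM, ENO1 and PKM and the highest for ALDOC and PFKM.

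Genes around the members were taken from further lists, also chosen with earlier results known. Of 28 measured genes of further glycolysis and pyruvate handling (31 listed), 4 were higher and 7 lower with shBAP1 #1 against shControl, and 3 higher and 6 lower with shBAP1 #2. The called shares of 39.3% with shBAP1 #1 and 32.1% with shBAP1 #2 compare with 25.6% and 33.4% of all genes, and with 36.9% and 47.8% of genes at or above the median level. MPC2, a subunit of the mitochondrial pyruvate carrier, changed by -1.73 ± 0.13 with shBAP1 #1 (limma adjusted p = 1.24e-05) and by 0.00 with shBAP1 #2 (adjusted p = 0.993). BPGM, which makes bisphosphoglycerate, changed by 1.01 ± 0.10 with shBAP1 #1 and by -0.13 with shBAP1 #2, which was not called. PDP1, the phosphatase that reactivates pyruvate dehydrogenase, was higher with both shRNAs, by 0.83 with shBAP1 #1 and 0.27 with shBAP1 #2. LDHC, a lactate dehydrogenase known from testis, was lower with both, at -0.98 with shBAP1 #1 and -0.71 with shBAP1 #2. ENO3, the muscle enolase, was also lower with both, at -0.88 with shBAP1 #1 and -1.58 with shBAP1 #2. PDK2, a kinase of the same kind as PDK1, was lower with both, at -0.35 with shBAP1 #1 and -0.59 with shBAP1 #2. SLC2A10, a glucose transporter, was higher by 1.67 ± 0.14 with shBAP1 #2 (limma adjusted p = 1.76e-05) and stood at 0.31 with shBAP1 #1 (adjusted p = 0.142, and 0.0487 with the replicate block).

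Of 13 regulators of HIF, all measured, 2 were higher and 3 lower with shBAP1 #1 against shControl, and 4 higher and 3 lower with shBAP1 #2. Their called shares were 38.5% with shBAP1 #1 and 53.8% with shBAP1 #2, against 25.6% and 33.4% of all genes, and near the 36.9% and 47.8% of genes at or above the median level. HIF1AN, an asparaginyl hydroxylase that blocks HIF from recruiting its coactivators, was higher by 0.80 ± 0.09 with shBAP1 #1 (limma adjusted p = 8.88e-05) and by 0.52 ± 0.09 with shBAP1 #2 (adjusted p = 0.000927). ARNT, the dimer partner of the alpha subunits, was lower with both, at -0.33 with shBAP1 #1 and -0.38 with shBAP1 #2. CREBBP, a coactivator acetyltransferase, changed by -0.86 ± 0.10 with shBAP1 #2 (adjusted p = 0.000129) and by -0.28 with shBAP1 #1, which was not called (adjusted p = 0.0758, and 0.0214 with the replicate block). CITED2, which competes with HIF for those coactivators, changed by -0.48 ± 0.13 with shBAP1 #1 (limma adjusted p = 0.0182) and by 0.33 with shBAP1 #2, not called, and the shRNAs differed by 0.81 ± 0.13 (adjusted p = 0.000597). ARNT2, the neuronal partner subunit, was higher by 1.02 ± 0.16 with shBAP1 #2 and stood at 0.20 with shBAP1 #1, not called. CUL2 and ELOC belong to the ubiquitin ligase that removes hydroxylated HIF. CUL2 changed by -0.39 with shBAP1 #1 and by 0.05 with shBAP1 #2, not called, and ELOC by -0.14 with shBAP1 #1, not called, and by 0.32 with shBAP1 #2. The calls over the 13 genes went both ways with each shRNA.

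Some members that act at the same step differed in their change. The difference in log2 change against shControl between HK1 and HK2 was 0.16 with shBAP1 #1 and 1.18 with shBAP1 #2. Between PFKM and PFKP it was 0.77 with shBAP1 #1 and -0.43 with shBAP1 #2, and between ALDOA and ALDOC -0.64 with shBAP1 #1 and 0.50 with shBAP1 #2. PFKFB3 minus PFKFB4 gave like values with both shRNAs, -0.78 with shBAP1 #1 and -0.76 with shBAP1 #2. Other pairs were closer with shBAP1 #2. PFKL minus PFKP was 0.39 with shBAP1 #1 and 0.04 with shBAP1 #2, and SLC2A1 minus SLC2A3 was -0.80 and -0.12. These are differences of fitted changes, given with no test of their own, and the HK1 and HK2 value uses the HK2 probe set described above.

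HIF binds DNA at a short core, ACGTG or GCGTG, and the promoters were read for it because members with like annotation as HIF targets moved differently. RefSeq promoter windows (GRCh38.p14, 250 bases before to 50 bases after the transcription start) were held for 27 of the 31 members, and the first window listed per gene was read. SLC2A3, BNIP3L, NDRG1 and HILPDA had no window in the table. Capitals mark ACGTG or GCGTG on either strand, read on the opposite strand as CACGT or CACGC, and the 4 windows printed are those of BNIP3 and ALDOC, which moved oppositely with the shRNAs, of ANKRD37, which fell with shBAP1 #1, and of GAPDH, which was not called. They lie on the minus strand at chr10:131981874-131982173 (BNIP3) and chr17:28576846-28577145 (ALDOC), and on the plus strand at chr4:185396591-185396890 (ANKRD37) and chr12:6535014-6535313 (GAPDH).
BNIP3: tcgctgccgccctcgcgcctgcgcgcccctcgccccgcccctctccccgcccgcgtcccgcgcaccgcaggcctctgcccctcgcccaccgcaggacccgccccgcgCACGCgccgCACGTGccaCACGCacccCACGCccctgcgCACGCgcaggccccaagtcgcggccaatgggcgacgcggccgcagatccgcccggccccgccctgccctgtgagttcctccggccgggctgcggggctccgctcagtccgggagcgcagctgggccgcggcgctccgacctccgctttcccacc
ALDOC: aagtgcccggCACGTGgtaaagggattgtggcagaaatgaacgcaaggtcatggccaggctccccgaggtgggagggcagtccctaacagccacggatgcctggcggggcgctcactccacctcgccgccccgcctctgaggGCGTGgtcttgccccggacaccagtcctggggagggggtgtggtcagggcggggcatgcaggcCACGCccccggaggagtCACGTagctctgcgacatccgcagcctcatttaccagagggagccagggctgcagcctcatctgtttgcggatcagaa
ANKRD37: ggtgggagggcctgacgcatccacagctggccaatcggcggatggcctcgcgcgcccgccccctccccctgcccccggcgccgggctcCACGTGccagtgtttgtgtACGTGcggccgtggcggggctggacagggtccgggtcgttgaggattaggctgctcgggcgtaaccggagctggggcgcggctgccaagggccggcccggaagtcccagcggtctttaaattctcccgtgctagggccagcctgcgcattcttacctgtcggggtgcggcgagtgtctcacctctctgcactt
GAPDH: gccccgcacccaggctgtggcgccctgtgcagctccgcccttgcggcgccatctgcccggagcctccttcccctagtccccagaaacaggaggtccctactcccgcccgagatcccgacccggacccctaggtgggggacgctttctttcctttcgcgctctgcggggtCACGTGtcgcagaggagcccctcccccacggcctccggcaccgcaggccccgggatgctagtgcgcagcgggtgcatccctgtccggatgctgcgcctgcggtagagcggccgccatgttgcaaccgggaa

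The core ACGTG, with its reverse complement, was present in 10 of the 27 windows, against 21.6% of the windows of 27305 genes. GCGTG was present in 14 of 27, against 36.3%, and either core in 19 of 27, against 48.4%. The palindrome CACGTG, which holds ACGTG on both strands and is also the E-box read by MYC and other factors, was present in 5 of 27, against 7.43%. Both cores hold the letters CG, and the windows compared were not matched for base composition. Its part in these shares was not tested. Either core was in 10 of 15 windows of glycolytic enzymes and in 4 of 6 of the other hypoxia targets. Counting both strands, so that each CACGTG counts 2 times, the BNIP3 window held ACGTG 2 times and GCGTG 4 times, the ALDOC window 3 and 2 times, the ANKRD37 window 3 and 0 times, and the GAPDH window 2 and 0 times. LDHA, lower with shBAP1 #1, held ACGTG 5 times. The windows of HK1, PFKM, PGAM1, PDK1 and MXI1, all called with shBAP1 #2, held neither core. Nor did those of PFKP, called with shBAP1 #1, and of TPI1 and EGLN3, which were not called. Windows with a core belonged to genes called in either direction and to genes not called, and the part of the core in these changes was not tested. Only 16 of the 27 members had a single window, and further windows of the rest were not read. A match describes letters in this window and shows no binding.

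**Figure D5:**
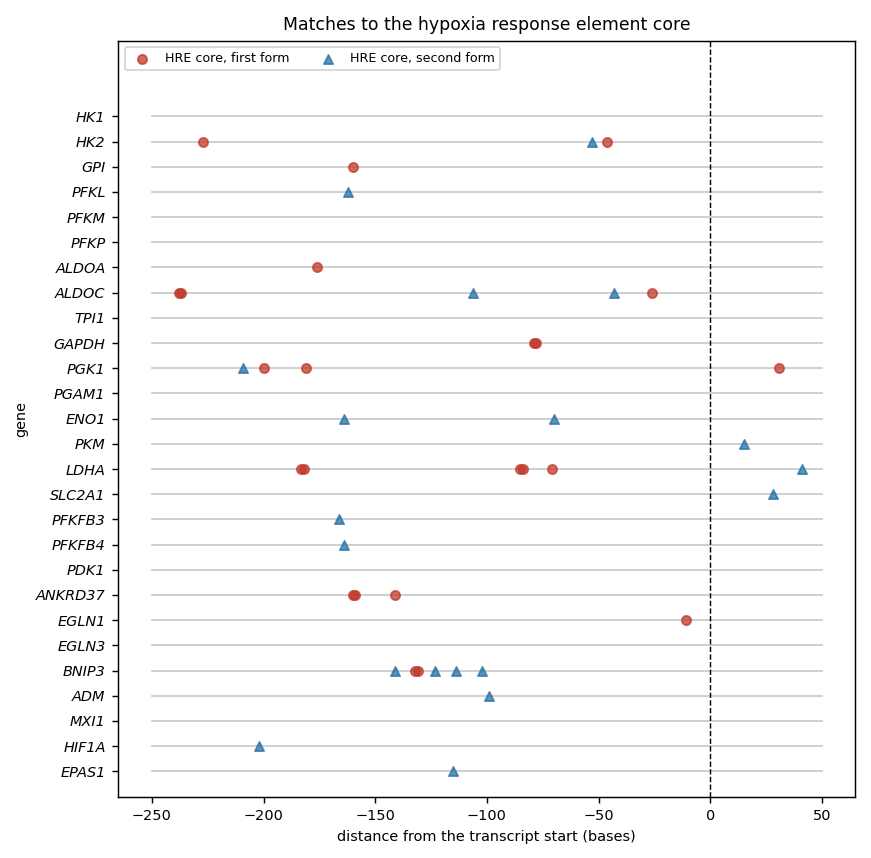
Rows are the members with a promoter window, by role, and marks give the distance in bases from the transcription start of each ACGTG (circles, HRE core, first form) or GCGTG (triangles, HRE core, second form) on either strand, HRE standing for hypoxia response element. Cores occur in the windows of genes called with either shRNA, such as BNIP3 and LDHA, and in that of GAPDH, which was not called.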

How the data were processed

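RNA of 9 U2OS samples in 3 groups was measured on oligonucleotide expression arrays. The deposited values are log2 levels per probe set that the authors made with RMA (robust multi-array averaging), as the submitters' processing notes record. The RMA version is not given in the sources used here. RMA forces 1 intensity distribution on all arrays, so a shift of all transcripts at once cannot be seen, and it compresses changes of dim probe sets. For arrays, their number limits the precision.

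The table held 54675 probe sets, of which 41097 had 1 gene symbol in the platform annotation, 1801 had several and 11777 were unnamed here. The gene table of GRCh38.p14 matched 41043 of the 41097 by identifier, and 0 symbols were updated. The probe set with the highest mean was kept per gene. The 31 members had 69 probe sets, and 20 members had more than 1. Of the probe sets kept for members, 3 had the suffix _x_at and 14 the suffix _s_at or _a_at, which mark probes shared between transcripts or genes, so related genes may contribute.

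Groups and replicate numbers came from the sample titles. A linear model without covariates was fitted with lmFit and eBayes of limma 3.58.1 (R 4.3.3), two-sided, to all 9 arrays, with 6 residual and 4.33 prior degrees of freedom, and p-values were adjusted by Benjamini-Hochberg over 19775 genes for each of 3 comparisons. The fit was tested on simulated data. Figures were drawn in Python 3.11.15 with matplotlib 3.10.9. The members and lists were chosen with earlier results of these data known. All members were named, and of each further pathway list up to 4 genes with the smallest adjusted p against shControl. Promoter windows came from RefSeq, the first listed per gene.

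Same-numbered arrays of shBAP1 #1 and shControl deviated together from their group means, with correlations over genes of 0.113, 0.203 and 0.216, and were taken as paired in an alternative fit with the replicate number as a block. For shBAP1 #2 and shControl the correlations were 0.068, 0.181 and -0.105, and these were not taken as paired. Alternatives changed the probe set rule, the normalization, a filter on dim probe sets, the arrays in the fit, the variance model, the replicate block and each array left out in turn. Leaving out shared-probe suffixes dropped _x_at, _s_at and AFFX control probe sets but not _a_at ones. A gene with no other probe set kept its own.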

Additional observations from a re-analysis of the deposited data

Results flagged for a closer look

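For 4 members the shRNAs were called in opposite directions against shControl, and the direct comparison of shBAP1 #2 with shBAP1 #1 was called as well. The log2 difference, shBAP1 #2 minus shBAP1 #1, was 1.21 for BNIP3, 1.01 for NDRG1, -0.73 for PFKM and -1.16 for ALDOC.

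Some probe sets at or above the median level that were not used for the members changed where the one used was not called or was called the other way. For BNIP3L, probe set 221478_at was lower, at -0.53 with shBAP1 #1 and -0.82 with shBAP1 #2. PDK1 probe set 239798_at was lower with shBAP1 #1, at -0.69, and PGK1 probe set 227068_at was higher, at 0.36. With shBAP1 #2, ALDOA probe set 238996_x_at was lower, at -0.26. HK2 probe sets 222305_at and 239410_at were higher with shBAP1 #2, at 0.86 and 1.08, and SLC2A3 probe sets 202499_s_at and 202498_s_at likewise, at 1.11 and 0.75. Which transcript each of these reads was not tested.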

How the results depend on the processing

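Of 47 called member values, 33 were called in the same direction when any 1 array was left out, 35 under every other alternative and 29 under all. Leaving out 1 array gave 3 to 6 members higher and 6 to 10 lower with shBAP1 #1 against shControl, 5 to 9 higher and 4 to 6 lower with shBAP1 #2, and 10 to 12 higher and 5 to 8 lower between the shRNAs. It gave 0 to 2 higher and 0 to 1 lower with both shRNAs. The share of all genes called was not computed for any alternative fit in this section. The member counts here therefore show only how stable the calls were. The enzymes' medians ranged over -0.01 to 0.07, -0.03 to 0.01 and 0.01 to 0.03 in these 3 comparisons, and those of the other hypoxia targets over -0.22 to -0.16, 0 to 0.09 and 0.20 to 0.27.

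With a gene's probe sets averaged, 5 members were lower between the shRNAs, 0 were higher and 2 lower with both shRNAs, the enzymes' median between the shRNAs was 0.09, and the hypoxia targets' median was -0.35 with shBAP1 #1 and 0.08 with shBAP1 #2. With shared-probe suffixes left out, 2 were lower with both shRNAs. The hypoxia targets' median with shBAP1 #1 was then -0.46, with NDRG1 and EGLN3 still read from _s_at probe sets. Without dim genes, that median was -0.32 with shBAP1 #1, 0.11 with shBAP1 #2 and 0.39 between the shRNAs. Cyclic loess gave an enzyme median of -0.01 between the shRNAs. Fitting 2 groups at a time, or with a trended robust variance, gave 2 members higher with both.

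Changes that reversed did so with another probe set rule. With the mean of probe sets, HK2 was at 0.50 with shBAP1 #2 and 0.43 between the shRNAs, PDK1 at -0.07 with shBAP1 #2 and AK4 at -0.09 with shBAP1 #1. With the suffixes left out, ENO1 was at 0.15 with shBAP1 #1 and -0.16 between the shRNAs, SLC2A1 at 0.11 and -0.01, AK4 at -0.15 with shBAP1 #1, and BNIP3L at -0.28 and FAM162A at 0.05 between the shRNAs. The cause was not tested.

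The replicate block over all 9 arrays gave 5 members higher and 9 lower with shBAP1 #1, 8 and 5 with shBAP1 #2, and 11 and 7 between the shRNAs. It lost HK2 (adjusted p = 0.0567) and gained SLC2A3 (0.0261) with shBAP1 #2, and lost EGLN1 (0.053) and MXI1 (0.0544) between the shRNAs. The shBAP1 #2 arrays were not taken as paired with shControl, and same-numbered deviations between the shRNAs correlated at 0.023, 0.038 and -0.21. With the paired shBAP1 #1 and shControl arrays alone, a fit chosen after seeing the data, 5 were higher and 10 lower, PKM being the gain, and it changed no other member's call. In the 250 bases before the start, either HIF core was in 17 of 27 windows, against 43.1%, again without matching for base composition.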

Other observations

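Further genes known as hypoxia targets went both ways with each shRNA. Of 28 measured (29 listed), 11 were higher and 8 lower with shBAP1 #1 against shControl, with a median log2 change of 0.07, and 11 higher and 5 lower with shBAP1 #2, with a median of 0.11. The called shares were 67.9% with shBAP1 #1 and 57.1% with shBAP1 #2, against 25.6% and 33.4% of all genes and 36.9% and 47.8% of genes at or above the median level. P4HA2, a collagen prolyl hydroxylase, was higher by 1.03 ± 0.07 with shBAP1 #1 and 1.04 ± 0.07 with shBAP1 #2 (limma adjusted p = 6.62e-06 and 4.89e-06), and LOX, a collagen crosslinking enzyme, by 1.78 and 1.67. TMEM45A, a transmembrane protein, was higher by 2.49 with shBAP1 #1 and 1.19 with shBAP1 #2. FAM162A, a mitochondrial protein, was higher by 0.77 with shBAP1 #1 and 0.43 with shBAP1 #2, and AK4, a mitochondrial adenylate kinase, by 0.24 and 0.69. For AK4 with shBAP1 #1 the direction turned with its probe sets averaged (-0.09, adjusted p = 0.461) or with shared-probe suffixes left out (-0.15, adjusted p = 0.537), neither called. ZNF395, a zinc finger protein, changed by -1.20 with shBAP1 #1 and by -1.42 with shBAP1 #2. Of 6 mesenchymal markers, 3 were higher with shBAP1 #1 (SPARC, COL1A1 and RUNX2, median of the list 0.30) and 1 with shBAP1 #2 (ALPL, median of the list 0.02), and their part in these values was not tested.

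Of 7 measured pentose phosphate genes (8 listed), 1 was higher and 1 lower with shBAP1 #1, and 3 higher and 2 lower with shBAP1 #2. The called shares were 28.6% with shBAP1 #1 and 71.4% with shBAP1 #2, against 25.6% and 33.4% of all genes and 36.9% and 47.8% of genes at or above the median level. RPIA, the ribose phosphate isomerase, was higher by 0.49 ± 0.09 with shBAP1 #1 and by 0.86 ± 0.09 with shBAP1 #2 (limma adjusted p = 0.00191 and 4.81e-05). RPE, an epimerase of the same branch, was at 0.07 with shBAP1 #1, not called, and higher by 0.49 with shBAP1 #2. PGD, an oxidative enzyme of the pathway, was at 0.01 with shBAP1 #1, not called, and at -0.42 with shBAP1 #2 (adjusted p = 0.000455). TALDO1 changed by -0.42 with shBAP1 #1 and was at 0.09 with shBAP1 #2, not called, while TKT was at 0.12 with shBAP1 #1, not called, and at -0.24 with shBAP1 #2. H6PD was not called, at 0.09 and 0.15.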
